A study of Mus musculus with 6 samples.

Results

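The Toll-like receptor and interferon system genes described here were 82 of the 18193 genes measured in Thy1-positive and Thy1-negative cells of the prepubertal mouse testis. They were taken by symbol, as every Toll-like receptor (Tlr), interferon regulatory factor (Irf), interferon receptor (Ifnar, Ifngr), Stat, Ifit, Ifitm, Ifi, oligoadenylate synthetase (Oas) and Nlrp gene on the array, with Myd88, Mx1 and Mx2. These genes had 115 of the 45037 probe sets tested, and each gene was read from the probe set that was brightest on average. Testis cells of prepubertal mice were separated by magnetic sorting for the surface protein Thy1, which is carried by stem spermatogonia among other cells. The study compared a Thy1-positive fraction, enriched in spermatogonial stem cells by germ cell transplantation per the labels, with the Thy1-negative fraction depleted of them, and looked for genes at 10-fold or more. Each fraction had 3 samples from independent donor preparations, and total RNA of each sample was hybridised to 1 Affymetrix array. The labels give no treatment or genetic change for either fraction; the strain, the exact age and the number of mice behind a preparation are not given in the sources used here.

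Toll-like receptors are membrane proteins that bind microbial lipids, proteins or nucleic acids and signal, most of them through the adaptor Myd88, to NF-kappaB and interferon regulatory factors. Interferons made in response act on their own receptors, which activate Stat proteins and switch on antiviral genes of the Oas, Ifit, Ifitm, Ifi and Mx families. Tissue macrophages are well known for such receptors, whereas several Nlrp genes, relatives of the inflammasome sensors, are known in mice for expression in oocytes and other germ cells.

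Thy1 itself had log2 intensities of 6.05, 6.52 and 6.05 on the Thy1-positive arrays and 2.35, 2.35 and 2.74 on the Thy1-negative arrays, with no overlap (at least 11.4-fold higher, adjusted p = 0.000984). Of 14 measured markers of undifferentiated spermatogonia, 12 were called higher in Thy1-positive cells, where the list averaged 9.90 to 9.93, against 6.66 to 7.51 in Thy1-negative cells. Of 20 macrophage markers, 18 were called higher, with list means of 8.24 to 8.48 in Thy1-positive cells and 3.31 to 3.38 in Thy1-negative cells. Cd163 was at low signal in both fractions, and Siglec1 averaged 2.83 in each. Of 10 germ cell markers, 5 were called higher (11.37 to 11.41 in Thy1-positive cells, 8.73 to 10.40 in Thy1-negative cells). Of 12 Sertoli cell markers, 11 were called lower in Thy1-positive cells (6.19 to 7.78, against 10.31 to 10.84 in Thy1-negative cells). Over all genes, 18.5% were called higher and 14.4% lower. In bulk samples, fewer cells of a type and less RNA per cell cannot be told apart.

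Of the 82 genes, 28 (34.1%) were called at an adjusted p below 0.05, against a background of 33.0% of all genes called in either direction. The overall share was thus close to that of all genes and is no result about these genes. By direction, 23 (28.0%) rose in Thy1-positive cells (background 18.5%) and 5 (6.10%) fell (background 14.4%), while 54 were not called. The median log2 difference was 0.11 over the 82 genes and 0.01 over all genes. On 48 of the genes the Thy1-positive and Thy1-negative arrays did not overlap (background 51.4% of all genes in either direction), 42 of them higher in Thy1-positive cells (51.2%, background 31.6%) and 6 lower (7.32%, background 19.8%). Tlr2 and Tlr13 were the 2 genes that rose by 10-fold or more (background 0.715%). The genes were often dim: 42 of the 82 lay below the median of every array, against 6272 of all 18193 genes. Of those 42, 2 (Ifi204 and Oasl1) were called, against 1.95% of all genes at that level. Of the 40 above the median of at least 1 array, 26 were called, 21 higher and 5 lower. At that level 49.3% of all genes were called, 27.5% higher and 21.8% lower. A gene could reach that level through 1 fraction alone. At low signal in both fractions, with a mean below the 25th percentile of the arrays, were 15 genes, against 3107 of all 18193. This last share was near that of all genes and is no result about these genes. Leaving out 1 array gave 16 to 23 genes higher, and 0 lower without Thy1-positive array 1 or 3 or Thy1-negative array 1 or 3 (5 at an unadjusted p below 0.05 in limma each time). Without both arrays numbered 3, a setting chosen after seeing the data, 2 rose and 0 fell (1 lower at an unadjusted p below 0.05), and over all genes 149 were higher and 61 lower. With arrays centred on their median, 79.7% of all called genes were higher, and with arrays centred on housekeeping genes 45.7%, against 56.2% as reported; the median difference of all genes was then 0.13 and -0.12. The housekeeping centring left 20 of the 82 genes called higher and 5 lower, and at an unadjusted p below 0.05 it gave 24 higher and 26 lower, against 29 and 6 as reported. Of the 11 housekeeping genes measured, 4 were themselves called higher, B2m among them (log2 difference 1.13), and 1 lower. This centring is therefore not a neutral reference.

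All tests were made with limma on log2(intensity + 1) over all 18193 genes, with Benjamini-Hochberg adjustment and n = 3 arrays per fraction, and each difference is Thy1-positive minus Thy1-negative. The p-values measure the spread between these 6 samples. Levels of different probe sets are not comparable, so levels are compared only within a gene. Near-identical family members can share probes, so values of the Nlrp4, Nlrp9, Oas1, PYHIN (Ifi203, Ifi204 and Ifi207 among them), Ifitm and Ifi27 families are uncertain as to which member was measured.

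**Figure D1:**
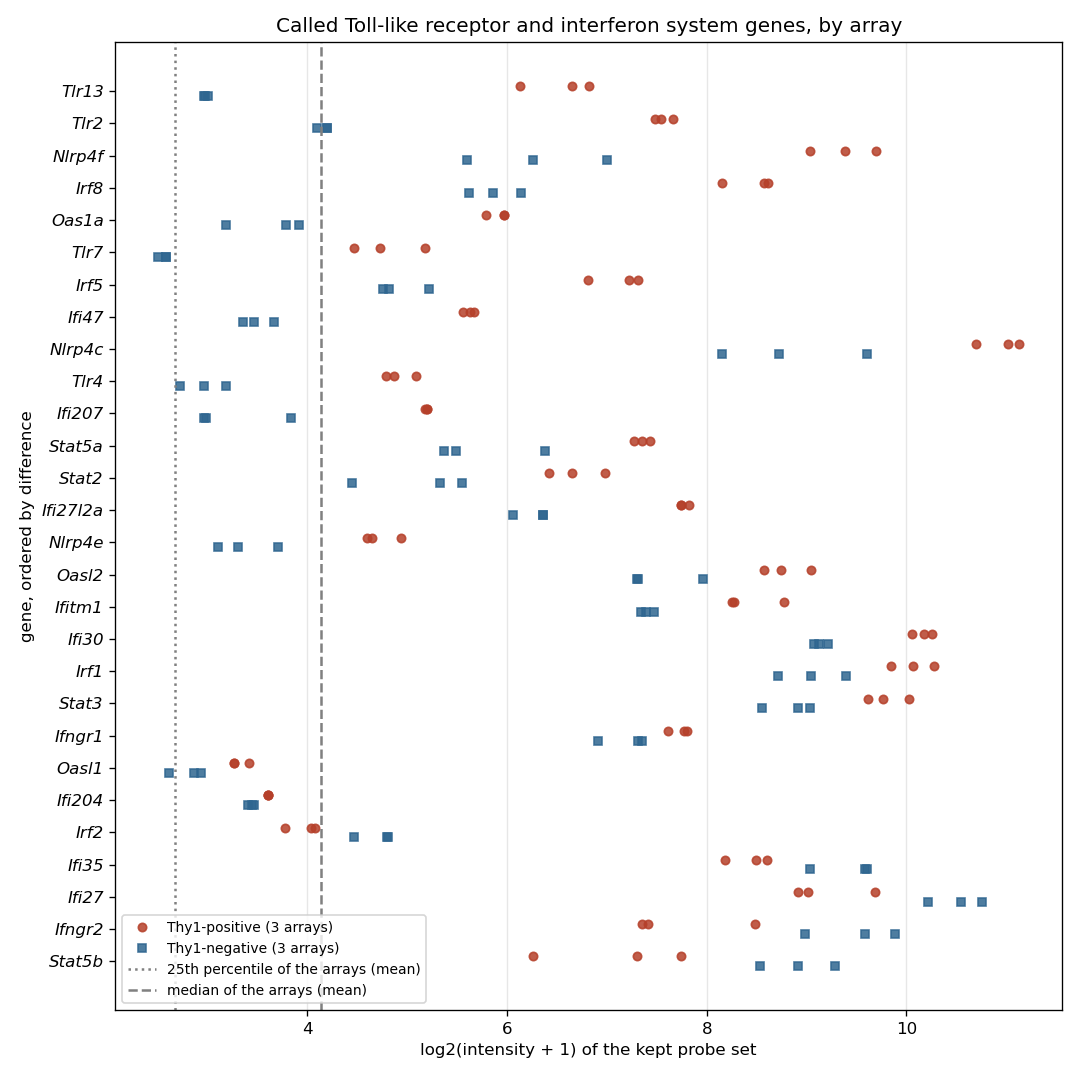
Log2(intensity + 1) of the 28 called genes on each of the 3 Thy1-positive (circles) and 3 Thy1-negative (squares) arrays, ordered by difference, with the mean 25th percentile and mean median of the arrays as vertical lines. None of the 28 overlaps between fractions, and Tlr2 and Tlr13 have the widest gaps.

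To show what the promoters of the interferon-induced genes hold beside their levels, 6 windows were chosen after their matches were seen: Oas1a, Stat2, Ifi207 and Irf8, which rose, and Ifit1 and Ifit3, which did not. Each is the 250 bases before a start of the gene in RefSeq on GRCm38.p6, written 5′ to 3′ on the gene's strand. Capitals mark matches to GAAA, any 2 bases and GAAA again, the core of the interferon-stimulated response element (ISRE) bound by Stat2 complexes and Irf proteins, or to TTCNNNGAA, the gamma-activated sequence (GAS) bound by Stat dimers. Both strands were searched, overlapping matches were counted, and matches to the 2 motifs can overlap. The windows lie at chr5:120907526-120907775 (reverse strand), chr10:128270248-128270497 (forward strand), chr1:173741810-173742059 (reverse strand), chr8:120736108-120736357 (forward strand), chr19:34640639-34640888 (forward strand) and chr19:34583279-34583528 (forward strand), in the order printed.
Oas1a: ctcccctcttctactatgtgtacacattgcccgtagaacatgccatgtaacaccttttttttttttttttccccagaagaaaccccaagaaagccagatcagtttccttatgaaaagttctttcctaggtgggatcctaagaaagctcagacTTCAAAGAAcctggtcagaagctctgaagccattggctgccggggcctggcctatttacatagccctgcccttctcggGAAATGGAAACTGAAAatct
Stat2: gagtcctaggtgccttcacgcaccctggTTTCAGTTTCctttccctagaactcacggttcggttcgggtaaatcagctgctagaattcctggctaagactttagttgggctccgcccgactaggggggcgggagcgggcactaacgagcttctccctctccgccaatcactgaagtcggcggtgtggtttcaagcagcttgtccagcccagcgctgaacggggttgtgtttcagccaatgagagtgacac
Ifi207: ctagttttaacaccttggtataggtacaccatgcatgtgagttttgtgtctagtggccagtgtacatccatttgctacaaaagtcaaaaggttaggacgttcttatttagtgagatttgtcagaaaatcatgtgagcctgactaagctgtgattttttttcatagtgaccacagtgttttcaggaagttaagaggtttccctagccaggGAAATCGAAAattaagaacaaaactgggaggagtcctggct
Irf8: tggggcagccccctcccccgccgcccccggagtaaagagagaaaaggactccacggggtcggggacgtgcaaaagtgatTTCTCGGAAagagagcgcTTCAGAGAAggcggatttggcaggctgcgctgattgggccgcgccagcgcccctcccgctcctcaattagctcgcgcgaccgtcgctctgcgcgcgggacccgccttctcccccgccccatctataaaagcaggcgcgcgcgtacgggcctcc
Ifit1: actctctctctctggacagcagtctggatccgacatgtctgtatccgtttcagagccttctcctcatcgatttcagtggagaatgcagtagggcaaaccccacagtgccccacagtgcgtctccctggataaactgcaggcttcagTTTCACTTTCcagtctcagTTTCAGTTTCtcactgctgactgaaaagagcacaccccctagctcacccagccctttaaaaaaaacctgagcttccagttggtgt
Ifit3: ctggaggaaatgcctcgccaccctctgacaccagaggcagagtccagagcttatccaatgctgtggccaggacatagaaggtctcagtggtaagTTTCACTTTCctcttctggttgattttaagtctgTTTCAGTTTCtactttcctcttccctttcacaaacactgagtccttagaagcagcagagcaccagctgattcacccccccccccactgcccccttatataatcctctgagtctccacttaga

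Oas1a has 2 overlapping ISRE matches close to its start and a GAS match, Stat2 and Ifi207 have 1 ISRE match each, and the Irf8 window printed has 2 GAS matches. Irf8 has a second RefSeq window, at chr8:120738389-120738638 on the forward strand, which holds no match to either motif, while the other 5 genes have 1 window each. Ifit1 and Ifit3 have 2 ISRE matches each. RefSeq windows were found for 68 of the 82 genes. An ISRE match lay in 16 of these 68 (23.5%), against 3.46% of 27025 genes with a window. By call, it lay in 3 of 19 genes that rose, 1 of 4 that fell and 12 of 45 that were not called. Most genes with the letters did not pass the test, and neither did most of the 68 genes (45 not called). The windows of Ifit1 and Ifit1bl2 overlap and hold the same ISRE matches, which are counted for both genes. A GAS match lay in 13 of 68 (19.1%), against 8.13% of all genes, and in 3 of the 19 that rose. The motif GAGGAAGT, bound by the myeloid factor PU.1, lay in 5 of 68 (7.35%, against 2.79% of all genes). Among genes that rose, those with this last motif were Ifi47 and Nlrp4c. A match is a description of the letters and not a site shown to be bound.

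Of 11 Toll-like receptors, 4 (36.4%, background 18.5%) rose in Thy1-positive cells (Tlr2, Tlr4, Tlr7 and Tlr13). None fell by limma (background 14.4%, 0 at an unadjusted p below 0.05), and 7 were not called. The median log2 difference of the 11 receptors was 0.66, against 0.01 over all genes. Tlr13, an endosomal mouse receptor for bacterial ribosomal RNA, had log2 levels of 6.13, 6.66 and 6.82 on the Thy1-positive arrays and 2.96, 2.97 and 3.01 on the Thy1-negative arrays. Every Thy1-positive array was thus more than 3 log2 units above every Thy1-negative one (11.8-fold, log2 difference 3.56, SE 0.19, adjusted p = 0.00118). Tlr2, the receptor for bacterial lipopeptides, had log2 levels of 7.54, 7.48 and 7.66 on the Thy1-positive arrays and 4.20, 4.09 and 4.20 on the Thy1-negative arrays, with little spread in either fraction (10.6-fold, log2 difference 3.40, SE 0.06, adjusted p = 5.51e-05). Tlr7, an endosomal receptor for single-stranded RNA, had log2 levels of 4.73, 4.47 and 5.18 on the Thy1-positive arrays and 2.58, 2.58 and 2.51 on the Thy1-negative arrays. Its Thy1-negative arrays lay below the 25th percentile, so its fold is a bound (at least 4.34-fold higher, log2 difference 2.23, SE 0.19, adjusted p = 0.00373). Its other probe sets were dim in both fractions and differed by 0.040 and 0.021. Tlr4, the lipopolysaccharide receptor, had log2 levels of 4.79, 4.86 and 5.09 on the Thy1-positive arrays and 3.18, 2.96 and 2.72 on the Thy1-negative arrays, again without overlap (3.89-fold, log2 difference 1.96, SE 0.15, adjusted p = 0.00273). A second Tlr4 probe set differed by 1.69, and the other 2 were dim. These 4 calls held when any single array was left out.

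The other 7 receptors were not called. Tlr1, a partner of Tlr2 in lipopeptide binding, had log2 levels of 5.48, 4.39 and 3.40 on the Thy1-positive arrays and 2.77, 2.75 and 2.76 on the Thy1-negative arrays. All Thy1-positive arrays were above the Thy1-negative ones, but they spread over more than 2 log2 units (log2 difference 1.66, SE 0.56, adjusted p = 0.0848). Tlr3, the receptor for double-stranded RNA that signals without Myd88, had log2 levels of 7.13, 6.82 and 6.85 on the Thy1-positive arrays and 6.61, 5.79 and 6.43 on the Thy1-negative arrays, also without overlap (log2 difference 0.66, SE 0.25, adjusted p = 0.113). Tlr9, the receptor for unmethylated bacterial DNA, was dim, with log2 levels of 2.92, 2.80 and 2.96 on the Thy1-positive arrays and 2.80, 2.79 and 2.79 on the Thy1-negative arrays. Its difference of 0.10 (SE 0.05, adjusted p = 0.176) passed without Thy1-positive array 2 (0.15), and turned sign with arrays centred on housekeeping genes (-0.032). Tlr5, Tlr6, Tlr8 and Tlr12 were dim in both fractions, within 2.03 to 3.01 on every array. Myd88, the shared adaptor, had log2 levels of 7.42, 7.62 and 7.64 on the Thy1-positive arrays and 7.47, 7.40 and 7.64 on the Thy1-negative arrays. Its arrays overlapped and it was not called (log2 difference 0.06, SE 0.09, adjusted p = 0.738), and its sign turned when arrays were centred on housekeeping genes (-0.075). The macrophage markers were higher on the same arrays as the Toll-like receptors (18 of 20 called, C1qa, C1qc, Cd68 and Spi1 at low signal in Thy1-negative cells), and their part in the result was not tested.

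**Figure D2:**
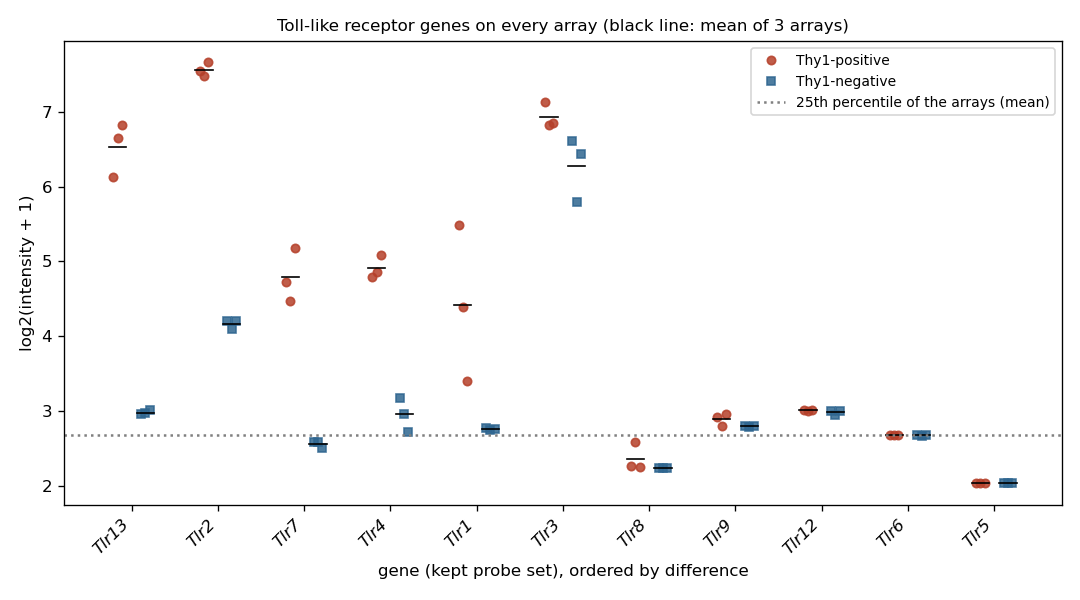
Log2(intensity + 1) of the 11 Toll-like receptors on each Thy1-positive and Thy1-negative array, ordered by difference, with a black line at the mean of 3 arrays. Tlr13, Tlr2, Tlr7 and Tlr4 show the widest gaps between fractions, and Tlr1 spreads widely among the Thy1-positive arrays.

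The accessory proteins of these receptors were read as a list of partner genes. Of 8 measured, 3 rose (37.5%, background 18.5%) and none fell (background 14.4%, 0 by limma, 1 at an unadjusted p below 0.05). Ly86, a secreted partner of the receptor homologue Cd180, rose by at least 39.4-fold, with log2 levels of 7.997, 7.872 and 8.056 on the Thy1-positive arrays and 2.21, 2.21 and 2.21 on the Thy1-negative arrays. Cd14, which hands lipopolysaccharide to Tlr4, rose by at least 13.4-fold, with log2 levels of 6.03, 6.82 and 6.41 on the Thy1-positive arrays and 2.52, 2.62 and 2.52 on the Thy1-negative arrays. Neither gene's arrays overlapped, and both had Thy1-negative means below the 25th percentile. The differences were 5.77 log2 units (SE 0.05, adjusted p = 1.12e-05) for Ly86 and 3.87 log2 units (SE 0.21, adjusted p = 0.00123) for Cd14. Unc93b1, which carries endosomal receptors out of the endoplasmic reticulum, rose by 1.25 log2 units (SE 0.18, adjusted p = 0.0105). Downstream, none of 12 adaptors and kinases rose (0 by limma, 1 at an unadjusted p below 0.05) and 2 fell (16.7%, background 14.4%), a share near the background and no result about the list. These were Tab2, which links Traf6 to its kinase, at -0.90 log2 units (SE 0.15, adjusted p = 0.0136), and the kinase Irak2 at -0.38 log2 units (SE 0.04, adjusted p = 0.00506). Of 11 NF-kappaB pathway genes, none rose (0 by limma, 0 at an unadjusted p below 0.05) and 5 fell (45.5%, background 14.4%): Nfkbia, the inhibitor induced by NF-kappaB, at -1.91 log2 units (SE 0.24, adjusted p = 0.00747), Bcl3 at -1.38 log2 units (SE 0.34, adjusted p = 0.0380), the kinase subunit Ikbkg at -0.83 log2 units (SE 0.17, adjusted p = 0.0232), and Ikbkb and Rela. The called genes of these last 2 lists, 7 in all, were lower in Thy1-positive cells. Sertoli and peritubular markers were lower on the same arrays (11 of 12 and 6 of 8 called), and their part in the result was not tested.

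Of the 4 interferon receptor chains, 1 rose (25.0%, background 18.5%), 1 fell (25.0%, background 14.4%) and 2 were not called. These shares rest on 1 gene each and are no result about the chains. Ifngr2, the signalling chain of the interferon-gamma receptor, had log2 levels of 7.35, 8.48 and 7.42 on the Thy1-positive arrays and 9.88, 8.99 and 9.59 on the Thy1-negative arrays. Its fractions did not overlap (3.33-fold lower, log2 difference -1.74, SE 0.42, adjusted p = 0.0363). A second, dimmer Ifngr2 probe set, with means of 3.17 in Thy1-positive cells and 3.37 in Thy1-negative cells, differed by -0.20 and was not called. The Ifngr2 call was lost without Thy1-positive array 1 (-1.54), Thy1-positive array 3 (-1.57), Thy1-negative array 1 (-1.54) or Thy1-negative array 3 (-1.69). Ifngr1, the ligand-binding chain of that receptor, had log2 levels of 7.78, 7.61 and 7.80 on the Thy1-positive arrays and 7.35, 6.91 and 7.31 on the Thy1-negative arrays and rose by 1.45-fold (log2 difference 0.54, SE 0.14, adjusted p = 0.0453). This call sat at the threshold: it was lost without Thy1-positive array 1 (0.52), Thy1-positive array 2 (0.60), Thy1-positive array 3 (0.50), Thy1-negative array 1 (0.62) or Thy1-negative array 3 (0.60), and with arrays centred on housekeeping genes (0.41). The chains of the receptor for type I interferons were those not called. Ifnar1 had log2 levels of 9.48, 9.28 and 9.45 on the Thy1-positive arrays and 9.22, 8.97 and 9.22 on the Thy1-negative arrays (log2 difference 0.27, SE 0.09, adjusted p = 0.0936), and a second probe set of the gene pointed the other way at -0.68. Averaging its probe sets turned its sign (-0.21). Ifnar2 had log2 levels of 8.40, 8.35 and 8.49 on the Thy1-positive arrays and 9.01, 8.15 and 8.84 on the Thy1-negative arrays, with overlapping arrays (log2 difference -0.25, SE 0.24, adjusted p = 0.513), and passed without Thy1-negative array 2 (-0.51).

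Of 6 Stat genes, 3 rose (Stat5a, Stat2 and Stat3, background 18.5%) and 1 fell (Stat5b, 16.7%, background 14.4%). Stat4 and Stat6 were not called. The share that fell rests on 1 gene and was near the background. Stat5a, which carries prolactin and cytokine signals, had log2 levels of 7.27, 7.43 and 7.35 on the Thy1-positive arrays and 5.49, 6.38 and 5.37 on the Thy1-negative arrays (3.03-fold, log2 difference 1.60, SE 0.30, adjusted p = 0.0190). A second Stat5a probe set rose by 1.83. Stat5b, its close relative with a large part in growth hormone signalling, had log2 levels of 6.26, 7.74 and 7.30 on the Thy1-positive arrays and 9.28, 8.53 and 8.92 on the Thy1-negative arrays, the opposite order (3.50-fold lower, log2 difference -1.81, SE 0.45, adjusted p = 0.0398). The second Stat5b probe set differed by -0.10 and was not called, and with the mean of both the difference was -0.95 and not called. Stat2, which joins Irf9 in the complex that type I interferons activate, had log2 levels of 6.42, 6.98 and 6.65 on the Thy1-positive arrays and 5.55, 5.33 and 4.44 on the Thy1-negative arrays (2.98-fold, log2 difference 1.58, SE 0.35, adjusted p = 0.0294). A dimmer second Stat2 probe set differed by 0.50 and was not called. Stat3, the mediator of interleukin 6 family signals, had log2 levels of 9.61, 10.03 and 9.77 on the Thy1-positive arrays and 8.92, 9.03 and 8.56 on the Thy1-negative arrays (1.96-fold, log2 difference 0.97, SE 0.17, adjusted p = 0.0171).

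The Stat3 probe sets disagreed. One differed by 0.82 (SE 0.03, adjusted p = 0.000652 over all probe sets in limma), as the kept one did, and another by -1.94 (SE 0.28, adjusted p = 0.0141), with means of 6.85 in Thy1-positive cells and 8.79 in Thy1-negative cells. The mean of all its probe sets differed by -0.038, turning the direction. Leaving out 1 array ended these calls: Stat5a without Thy1-positive array 1 (1.64), Thy1-positive array 2 (1.56), Thy1-positive array 3 (1.60), Thy1-negative array 1 (1.47) or Thy1-negative array 3 (1.41); Stat5b without Thy1-positive array 1 (-1.39), Thy1-positive array 3 (-1.91), Thy1-negative array 1 (-1.62), Thy1-negative array 2 (-2.00) or Thy1-negative array 3 (-1.81); Stat2 without Thy1-positive array 1 (1.71), Thy1-positive array 2 (1.42) or Thy1-positive array 3 (1.59); and Stat3 without Thy1-positive array 3 (0.99) or Thy1-negative array 1 (1.01). Stat4, which carries interleukin 12 signals, differed by 0.26 log2 units (SE 0.08, adjusted p = 0.0601), and Stat6, which carries interleukin 4 signals, by 0.10 log2 units (SE 0.24, adjusted p = 0.844).

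Among 11 kinases and feedback genes of these receptors, 1 rose (9.09%, background 18.5%) and 1 fell (9.09%, background 14.4%). Both shares lay below the background and are no result about the list. Ptpn6, a phosphatase of blood cells, had log2 levels of 7.98, 8.44 and 8.06 on the Thy1-positive arrays and 3.42, 3.23 and 3.23 on the Thy1-negative arrays (29.2-fold, log2 difference 4.87, SE 0.14, adjusted p = 0.000218). Socs2, a feedback inhibitor of growth hormone and Stat5 signalling, had log2 levels of 8.50, 9.46 and 8.70 on the Thy1-positive arrays and 13.18, 12.14 and 12.79 on the Thy1-negative arrays (14.1-fold lower, log2 difference -3.82, SE 0.39, adjusted p = 0.00515). Both were separated by more than 2 log2 units between the nearest arrays of the fractions. The remaining 9 were not called.

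**Figure D3:**
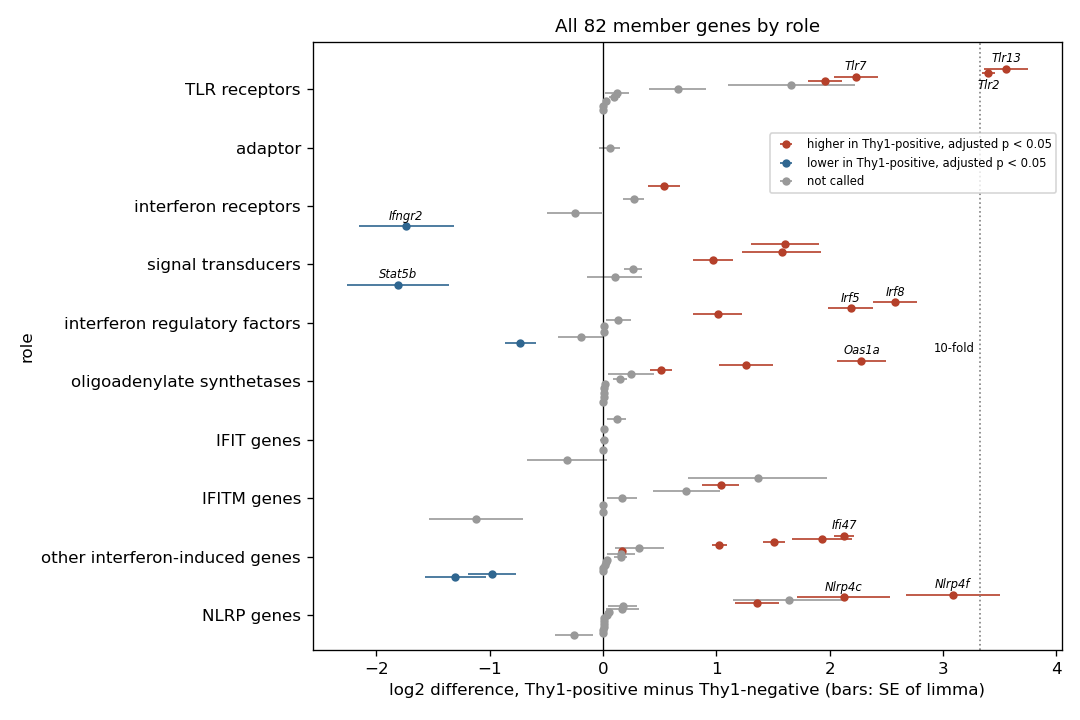
Log2 difference, Thy1-positive minus Thy1-negative, with the limma SE as bars, of all 82 genes in rows by role, coloured by call, with a dotted line at 10-fold. Genes that rose appear in every row except the adaptor and the IFIT genes, and the 5 that fell are Ifngr2, Stat5b, Irf2, Ifi27 and Ifi35.

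Of 8 interferon regulatory factors, 3 rose (37.5%, background 18.5%) and 1 fell (12.5%, background 14.4%). The share that fell was near the background. Irf8, a factor of the myeloid lineage, had log2 levels of 8.16, 8.62 and 8.58 on the Thy1-positive arrays and 5.86, 6.14 and 5.62 on the Thy1-negative arrays, with more than 2 log2 units between the nearest arrays (5.96-fold, log2 difference 2.58, SE 0.19, adjusted p = 0.00272). Its second probe set rose by 1.96. Irf5, which acts below Myd88 and is known for macrophage expression, had log2 levels of 6.81, 7.31 and 7.22 on the Thy1-positive arrays and 5.21, 4.75 and 4.82 on the Thy1-negative arrays (4.54-fold, log2 difference 2.18, SE 0.20, adjusted p = 0.00395), while its dimmer second probe set differed by 0.35 and was not called. Irf1, an activator induced by interferon-gamma, had log2 levels of 9.84, 10.27 and 10.07 on the Thy1-positive arrays and 8.71, 9.05 and 9.39 on the Thy1-negative arrays (2.02-fold, log2 difference 1.01, SE 0.22, adjusted p = 0.0263). Irf2, which can oppose Irf1 at the same DNA sequence, had log2 levels of 3.77, 4.04 and 4.07 on the Thy1-positive arrays and 4.80, 4.47 and 4.81 on the Thy1-negative arrays, lower in Thy1-positive cells (1.66-fold lower, log2 difference -0.73, SE 0.14, adjusted p = 0.0188). The only Irf2 probe set ends in _s_at, so the gene could not be read with such probe sets left out. The calls of Irf8 and Irf5 held when any single array was left out. That of Irf1 was lost without Thy1-positive array 1 (1.12), Thy1-positive array 2 (0.91), Thy1-positive array 3 (1.01), Thy1-negative array 1 (0.84) or Thy1-negative array 2 (1.01), and that of Irf2 without Thy1-positive array 1 (-0.64), Thy1-positive array 3 (-0.79), Thy1-negative array 1 (-0.68) or Thy1-negative array 3 (-0.67).

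The factors that induce type I interferon genes after virus sensing were not called. Irf3 had log2 levels of 9.60, 9.98 and 9.76 on the Thy1-positive arrays and 9.71, 9.63 and 9.59 on the Thy1-negative arrays (log2 difference 0.14, SE 0.11, adjusted p = 0.420), and its fractions overlapped. Irf7 lay at the background of the array, with log2 levels of 2.50, 2.50 and 2.50 on the Thy1-positive arrays and 2.50, 2.48 and 2.50 on the Thy1-negative arrays. Irf9 differed by -0.20 log2 units (SE 0.20, adjusted p = 0.529), and Irf4, a lymphocyte factor, was at low signal in both fractions. Irf8, Irf5 and Irf1 were higher on the arrays where the macrophage markers were higher (list means 8.24 to 8.48 in Thy1-positive cells and 3.31 to 3.38 in Thy1-negative cells), and the markers' part in the result was not tested. T lymphocyte markers averaged 4.27 to 4.32 in Thy1-positive cells and 2.96 to 3.07 in Thy1-negative cells, with 3 of 9 called higher (Cd3d, Cd3g and Lat, background 18.5%). B lymphocyte markers had 1 of 6 called higher (Ighm, background 18.5%), a share that rests on 1 gene and is near the background. The part of both lists was not tested.

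The interferon genes themselves were dim. All 8 measured (array means 2.58 to 2.61 in Thy1-positive cells and 2.55 to 2.56 in Thy1-negative cells) were not called, with 0 by limma and 0 at an unadjusted p below 0.05. Of 9 cytosolic nucleic acid sensors and their partners, 3 rose (33.3%, background 18.5%) and 1 fell (11.1%, background 14.4%). Dhx58, a helicase that regulates RNA sensing, had log2 levels of 5.72, 4.86 and 4.87 on the Thy1-positive arrays and 2.62, 3.04 and 2.75 on the Thy1-negative arrays, without overlap (log2 difference 2.35, SE 0.29, adjusted p = 0.00709). Aim2, a sensor of cytosolic DNA, rose by 0.70 log2 units (SE 0.16, adjusted p = 0.0294) and Zbp1, a sensor of unusual nucleic acid forms, by 0.40 log2 units (SE 0.06, adjusted p = 0.0116) with a Thy1-negative mean at low signal. Mavs, the mitochondrial adaptor of the RNA sensors, fell by 1.04 on the log2 scale (SE 0.06, adjusted p = 0.00163).

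Of 10 oligoadenylate synthetases, which make the messenger that activates RNase L, 3 rose (30.0%, background 18.5%). None fell (background 14.4%, 0 by limma, 0 at an unadjusted p below 0.05). Oas1a had log2 levels of 5.97, 5.78 and 5.97 on the Thy1-positive arrays and 3.19, 3.79 and 3.91 on the Thy1-negative arrays (4.86-fold, log2 difference 2.28, SE 0.22, adjusted p = 0.00436). Oasl2 had log2 levels of 8.57, 9.04 and 8.74 on the Thy1-positive arrays and 7.30, 7.97 and 7.31 on the Thy1-negative arrays (2.39-fold, log2 difference 1.26, SE 0.24, adjusted p = 0.0199), and Oasl1, a dim gene known in mice as a suppressor of Irf7 translation, had log2 levels of 3.41, 3.26 and 3.27 on the Thy1-positive arrays and 2.61, 2.86 and 2.93 on the Thy1-negative arrays (1.43-fold, log2 difference 0.51, SE 0.10, adjusted p = 0.0212). None of the 3 overlapped between fractions. The Oas1a call held when any single array was left out. The Oasl2 call was lost without Thy1-positive array 1 (1.37), Thy1-positive array 2 (1.13), Thy1-positive array 3 (1.28), Thy1-negative array 1 (1.15) or Thy1-negative array 3 (1.15), and the Oasl1 call without Thy1-positive array 1 (0.46), Thy1-positive array 2 (0.54) or Thy1-positive array 3 (0.54). The Oasl1 call was also lost with arrays centred on housekeeping genes. The other 7 were not called: Oas2 differed by 0.15 log2 units (SE 0.06, adjusted p = 0.142) and Oas1c by 0.24 log2 units (SE 0.20, adjusted p = 0.448), Oas1e lay within 2.69 to 2.72 on every array, and Oas1b, Oas1f, Oas1h and Oas3 were at low signal in both fractions.

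The 5 Ifit genes, whose proteins bind viral RNA and are among the most strongly induced by type I interferon, gave no call (0 by limma, 0 at an unadjusted p below 0.05). Ifit1 lay at the background of the array, with log2 levels of 2.20, 2.20 and 2.21 on the Thy1-positive arrays and 2.20, 2.20 and 2.20 on the Thy1-negative arrays. Ifit3 had log2 levels of 3.21, 2.96 and 2.95 on the Thy1-positive arrays and 2.95, 2.94 and 2.86 on the Thy1-negative arrays (log2 difference 0.12, SE 0.08, adjusted p = 0.356). Only Ifit2 of the family lay above the median of any array, with log2 levels of 5.21, 5.77 and 5.38 on the Thy1-positive arrays and 6.07, 5.09 and 6.14 on the Thy1-negative arrays, and its fractions overlapped (log2 difference -0.32, SE 0.35, adjusted p = 0.573). Ifit1bl1 and Ifit1bl2 were dim, within 2.67 to 3.44 on every array. Mx1, an antiviral dynamin-like protein, had log2 levels of 3.42, 3.02 and 3.02 on the Thy1-positive arrays and 3.02, 2.97 and 3.01 on the Thy1-negative arrays (log2 difference 0.16, SE 0.13, adjusted p = 0.425), and Mx2 was at low signal in both fractions. The windows of Ifit1 and Ifit3 printed above each hold ISRE letters, as that of Oas1a does.

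Of 7 Ifitm genes, membrane proteins that restrict virus entry, 1 rose (14.3%, background 18.5%). None fell (background 14.4%, 0 by limma, 1 at an unadjusted p below 0.05). The share that rose was near the background and is no result about the family. Ifitm1, also known in mice from primordial germ cells, had log2 levels of 8.28, 8.78 and 8.25 on the Thy1-positive arrays and 7.34, 7.47 and 7.39 on the Thy1-negative arrays (2.05-fold, log2 difference 1.04, SE 0.16, adjusted p = 0.0123). Its fractions did not overlap, and the call was lost without Thy1-negative array 3 (1.03). Ifitm3, known from the same cells, had log2 levels of 8.35, 9.33 and 8.61 on the Thy1-positive arrays and 7.93, 7.89 and 8.27 on the Thy1-negative arrays, also without overlap but not called (log2 difference 0.74, SE 0.30, adjusted p = 0.130). Ifitm2 had log2 levels of 9.58, 10.28 and 9.81 on the Thy1-positive arrays and 11.58, 10.25 and 11.23 on the Thy1-negative arrays. Thy1-positive array 2 was above Thy1-negative array 2, so the fractions overlapped (log2 difference -1.12, SE 0.42, adjusted p = 0.107). Without Thy1-negative array 2 it passed, at -1.51. Ifitm5 and Ifitm7 were at low signal in both fractions, and Ifitm10 differed by 0.17 log2 units (SE 0.13, adjusted p = 0.420). Ifitm6 was high on 1 Thy1-positive array, with log2 levels of 5.30, 3.54 and 3.22 on the Thy1-positive arrays and 2.78, 2.41 and 2.78 on the Thy1-negative arrays (log2 difference 1.36, SE 0.61, adjusted p = 0.166).

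Of 15 other interferon-induced genes, 5 rose (33.3%, background 18.5%), 2 fell (13.3%, background 14.4%) and 8 were not called. The share that fell was near the background. Ifi47, an immunity-related GTPase, had log2 levels of 5.63, 5.56 and 5.66 on the Thy1-positive arrays and 3.66, 3.47 and 3.35 on the Thy1-negative arrays (4.36-fold, log2 difference 2.13, SE 0.09, adjusted p = 0.000604). Ifi207, a DNA-binding protein of the PYHIN family, had log2 levels of 5.20, 5.18 and 5.20 on the Thy1-positive arrays and 2.98, 3.84 and 2.96 on the Thy1-negative arrays (3.82-fold, log2 difference 1.93, SE 0.27, adjusted p = 0.00923). Ifi27l2a had log2 levels of 7.82, 7.75 and 7.74 on the Thy1-positive arrays and 6.36, 6.06 and 6.36 on the Thy1-negative arrays (2.84-fold, log2 difference 1.51, SE 0.10, adjusted p = 0.00193). The Thy1-positive arrays of these 3 genes lay close together, and none overlapped with the Thy1-negative arrays. Ifi30, a lysosomal thiol reductase of antigen processing, rose by 1.03 log2 units (SE 0.07, adjusted p = 0.00195). Ifi204, a dim PYHIN gene, rose by only 0.17 log2 units (SE 0.02, adjusted p = 0.00745), and its call was lost with arrays centred on housekeeping genes (0.035). All 5 calls held when any single array was left out.

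Ifi27 and Ifi35 fell in Thy1-positive cells. Ifi27, a small membrane protein, had log2 levels of 9.02, 9.69 and 8.92 on the Thy1-positive arrays and 10.76, 10.22 and 10.55 on the Thy1-negative arrays (2.47-fold lower, log2 difference -1.30, SE 0.27, adjusted p = 0.0240). Ifi35 had log2 levels of 8.49, 8.60 and 8.18 on the Thy1-positive arrays and 9.61, 9.03 and 9.59 on the Thy1-negative arrays (1.98-fold lower, log2 difference -0.98, SE 0.21, adjusted p = 0.0269). Neither overlapped. The call of Ifi27 was lost without Thy1-positive array 1 (-1.21), Thy1-positive array 3 (-1.16), Thy1-negative array 1 (-1.18) or Thy1-negative array 3 (-1.28), and that of Ifi35 without Thy1-positive array 1 (-1.02), Thy1-positive array 2 (-1.07), Thy1-positive array 3 (-0.86), Thy1-negative array 1 (-0.88) or Thy1-negative array 3 (-0.89). With probe sets ending in _x_at or _s_at left out, the differences were -0.87 for Ifi27 and -0.58 for Ifi35, and neither was called. The 8 genes that were not called included Ifi209 at 0.32 log2 units (SE 0.22, adjusted p = 0.344), Ifi27l2b at 0.15 log2 units (SE 0.06, adjusted p = 0.113) and Ifi44l at 0.04 log2 units (SE 0.02, adjusted p = 0.226), and the dim genes Ifi202b, Ifi203 and Ifi213 ranged from 2.43 to 3.02 on any array.

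A further list held 24 interferon-induced genes outside the families above. Of these 24, 12 rose (background 18.5%) and 1 fell (4.17%, background 14.4%), with a median difference of 0.86. The share that fell rests on 1 gene. Psmb9 and Psmb8, subunits of the immunoproteasome, rose by 3.30 log2 units (SE 0.29, adjusted p = 0.00380) and 2.43 log2 units (SE 0.06, adjusted p = 0.000116). Psmb9 had log2 levels of 6.91, 7.20 and 7.03 on the Thy1-positive arrays and 3.24, 4.27 and 3.71 on the Thy1-negative arrays, and Psmb8 had log2 levels of 6.66, 6.80 and 6.87 on the Thy1-positive arrays and 4.35, 4.34 and 4.35 on the Thy1-negative arrays. Parp14, an ADP-ribosyltransferase, rose by 2.71 log2 units (SE 0.07, adjusted p = 0.000145). The ubiquitin ligase Trim25, which acts in RNA sensing, fell by 0.92 on the log2 scale (SE 0.16, adjusted p = 0.0150). Over all 93 partner genes measured, 22 rose (23.7%, background 18.5%), 12 fell (12.9%, background 14.4%) and 59 were not called, with a median of 0.08. These shares were near the background and are no result about the partner genes as a whole. The lower count was 5 without Thy1-positive array 1 or 3, 6 without Thy1-negative array 1 and 4 without Thy1-negative array 3. The called interferon-induced genes were mostly higher in Thy1-positive cells while the interferon genes were dim in both fractions. The macrophage markers were higher on the same arrays, 18 of 20 called, and their part in the result was not tested.

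**Figure D4:**
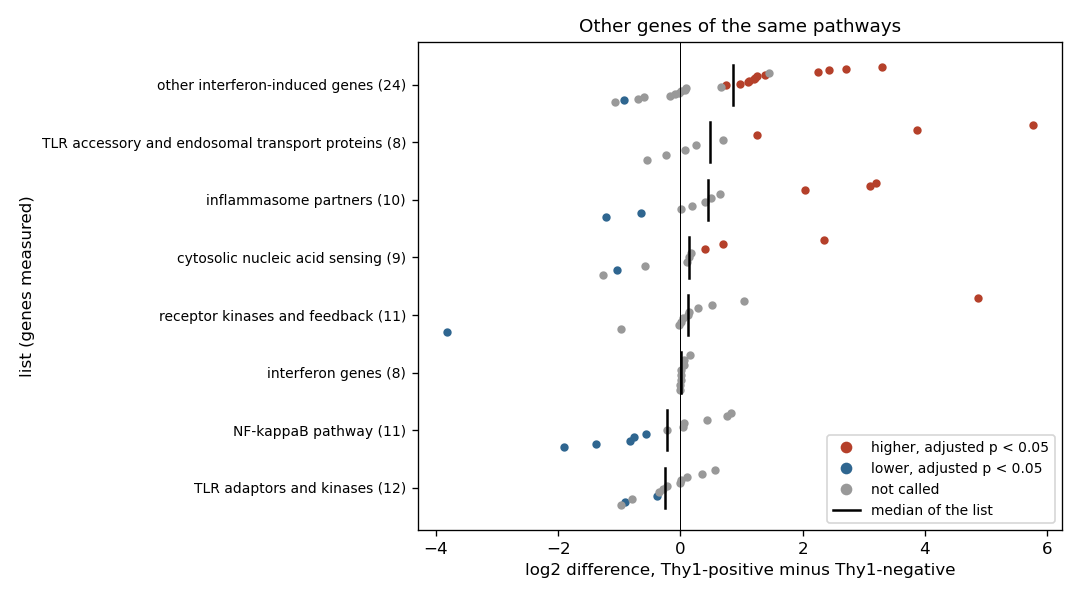
Log2 difference, Thy1-positive minus Thy1-negative, of the 93 measured partner genes in rows by list, coloured by call, with a black bar at the median of each list. Called genes of the NF-kappaB pathway lie below 0, those of the receptor accessory proteins above 0, and no interferon gene is called.

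Of 15 Nlrp genes, 3 rose (20.0%, background 18.5%), none fell (0 by limma, 0 at an unadjusted p below 0.05) and 12 were not called. The share that rose was near the background and is no result about the family. Nlrp4f had log2 levels of 9.70, 9.03 and 9.38 on the Thy1-positive arrays and 5.60, 7.00 and 6.26 on the Thy1-negative arrays, with no overlap (8.49-fold, log2 difference 3.09, SE 0.41, adjusted p = 0.00868). Nlrp4c had log2 levels of 11.13, 10.70 and 11.02 on the Thy1-positive arrays and 8.16, 9.61 and 8.72 on the Thy1-negative arrays (4.35-fold, log2 difference 2.12, SE 0.41, adjusted p = 0.0204), and Nlrp4e had log2 levels of 4.64, 4.60 and 4.94 on the Thy1-positive arrays and 3.10, 3.70 and 3.30 on the Thy1-negative arrays (2.56-fold, log2 difference 1.36, SE 0.19, adjusted p = 0.00972). In all 3 genes Thy1-negative array 2 was the highest of its fraction. Nlrp14, a germ cell gene, had log2 levels of 7.46, 6.29 and 6.71 on the Thy1-positive arrays and 4.45, 5.87 and 5.20 on the Thy1-negative arrays, with the same array highest among the Thy1-negative ones. It did not overlap and was not called (log2 difference 1.64, SE 0.49, adjusted p = 0.0644), and it passed without Thy1-negative array 2 (1.99). The Nlrp4f and Nlrp4e calls held when any single array was left out, and that of Nlrp4c was lost without Thy1-positive array 1 (2.03), Thy1-positive array 3 (2.08) or Thy1-negative array 3 (2.07). The germ cell marker list was also highest of its fraction on Thy1-negative array 2, with means of 8.73, 10.40 and 9.21 on the Thy1-negative arrays, against 11.41, 11.37 and 11.41 on the Thy1-positive arrays. The part of germ cell number in the result was not tested.

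Nlrp3, Nlrp5 and the remaining Nlrp genes were dim. Nlrp3, the inflammasome sensor of myeloid cells, had log2 levels of 2.96, 2.52 and 2.59 on the Thy1-positive arrays and 2.52, 2.50 and 2.53 on the Thy1-negative arrays (log2 difference 0.17, SE 0.13, adjusted p = 0.394). Nlrp5, known as an oocyte gene, had log2 levels of 2.89, 2.88 and 2.89 on the Thy1-positive arrays and 2.89, 2.88 and 2.89 on the Thy1-negative arrays. Nlrp6 and Nlrp9b were at low signal in both fractions, and Nlrp10 in Thy1-positive cells. The other Nlrp genes (Nlrp4a, Nlrp4b, Nlrp5-ps, Nlrp9a, Nlrp9c, Nlrp12) ranged from 2.67 to 3.28 on any array. Inflammasome partners outside the family were not all dim: of 10, 3 rose (30.0%, background 18.5%) and 2 fell (20.0%, background 14.4%). The cytokine gene Il18 had log2 levels of 8.14, 8.53 and 8.50 on the Thy1-positive arrays and 4.78, 6.11 and 4.69 on the Thy1-negative arrays, and Il1b had log2 levels of 6.36, 5.44 and 6.54 on the Thy1-positive arrays and 3.10, 2.95 and 2.99 on the Thy1-negative arrays, neither with overlap. They rose by 3.20 log2 units (SE 0.44, adjusted p = 0.00915) and 3.10 log2 units (SE 0.32, adjusted p = 0.00516). Casp1, the protease that processes both cytokines, rose by 2.04 log2 units (SE 0.13, adjusted p = 0.00180). Nek7, a kinase that Nlrp3 needs, was at -1.21 log2 units (SE 0.23, adjusted p = 0.0199), and Gsdmd, the pore-forming target of Casp1, at -0.64 log2 units (SE 0.17, adjusted p = 0.0429). Monocyte and neutrophil markers averaged 4.99 to 5.87 in Thy1-positive cells and 4.14 to 4.76 in Thy1-negative cells, with 2 of 8 called higher (background 18.5%). Ccr2 differed by 3.84 log2 units, while Mpo differed by only 0.07 and was at low signal in both fractions. The other 6 were not called, and the part of these markers in the result was not tested.

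**Figure D5:**
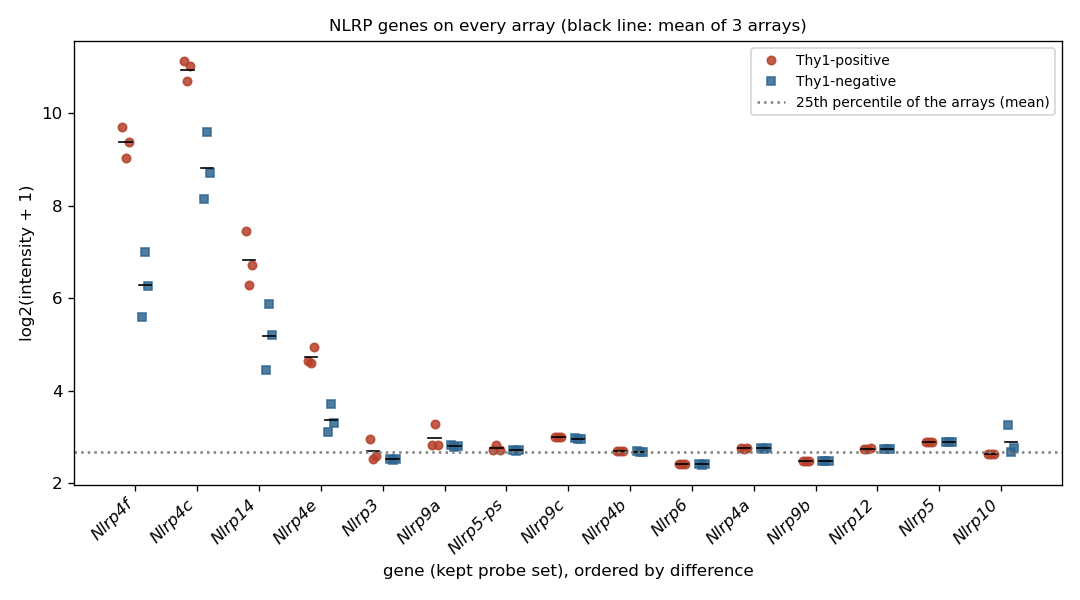
Log2(intensity + 1) of the 15 Nlrp genes on each Thy1-positive and Thy1-negative array. Nlrp4c, Nlrp4f, Nlrp14 and Nlrp4e carry signal above the dim remainder, and Thy1-negative array 2 is the highest of its fraction for these 4.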

How the data were processed

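Gene expression was measured in 3 Thy1-positive and 3 Thy1-negative samples, 1 Affymetrix array each. The deposited table gives the authors' processed intensity per probe set on a linear scale. The submitters' processing notes name GCRMA with no version, while the labels describe Affymetrix software with scaling to a mean of 150 after trimming 2%. The trimmed mean of the table was 287 to 293, which differs from that target, and the sources used here do not settle which procedure made the values. Array medians were 15.7 to 17.5, and correlations between any array and its closest other were 0.990 to 0.997. The number of arrays limits the precision.

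Of 45101 probe sets, 64 controls were left out. The platform table, which can be old, gave 1 gene to 34945, several to 932 and none to 9160. By Entrez identifier, a RefSeq table of GRCm38.p6 updated 0 symbols, and 204 had no match. The scale used was log2(intensity + 1) without added normalization, the probe set with the highest mean was kept for each of 18193 genes, and 23 of the 82 genes had several probe sets. The fractions were compared with limma 3.58.1 in R 4.3.3 (lmFit and eBayes, 2-sided, Benjamini-Hochberg over all genes at 0.05), and the procedure was tested on simulated data. Low signal means a fraction mean below the 25th percentile of the arrays. Where 1 fraction was at low signal, the fold is a bound, with that fraction's lower values raised to the percentile. Every array value is given for the 3 members per role and direction with the largest called change and for a list of well-known members; up to 3 partners per direction of each list are named. The members and lists were chosen with earlier results of these data known. Samples of the same number were not stated to share a preparation, so the numbers were not taken as pairs. Alternatives covered scaling, filters, pseudocount, variance model, array weights, choice of probe set, the replicate block and leaving out arrays.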

Additional observations from a re-analysis of the deposited data

How the results depend on the processing

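As reported, limma called 23 member genes higher in Thy1-positive cells, 5 lower and 2 at 10-fold or more, with 22 partner genes higher and 12 lower. Centring arrays on their median gave 61 members and 43 partners higher; it moved the median of all genes to 0.13 and the share of higher calls among all calls to 79.7%, against 56.2% as reported. Centring on housekeeping genes moved these to -0.12 and 45.7%, with 20 members higher and 5 lower, 22 partners higher and 17 lower, and 1 member at 10-fold or more; at an unadjusted p below 0.05 it gave 24 members higher and 26 lower, against 29 and 6 as reported. Of the 11 housekeeping genes, 4 were themselves called higher and 1 lower as reported, so this centring is not a neutral reference. Testing only genes above the median, which left 24 members, gave 13 members and 6 partners higher and 0 members at 10-fold, where 13 were higher at an unadjusted p below 0.05. A pseudocount of 16 also gave 0 at 10-fold (27 higher at an unadjusted p below 0.05). Array weights gave 37 members higher and 9 lower, and 42 partners higher and 30 lower. The mean of all probe sets gave 3 members lower, and leaving out probe sets marked as shared gave 2 lower. With the replicate block, 10 members were higher and 0 lower (4 at an unadjusted p below 0.05), and 9 partners were higher and 4 lower; calls over all genes were 931 higher and 548 lower, against 3368 and 2628 as reported, and deviations of arrays of the same number correlated at -0.164, -0.170 and -0.0361, so no array matched its own number best. Leaving out 1 array gave 16 to 23 members higher, 0 to 6 lower and 2 to 3 at 10-fold, with 16 to 27 partners higher and 4 to 15 lower; members lower were 0 without Thy1-positive array 1 or 3 or Thy1-negative array 1 or 3 (5 at an unadjusted p below 0.05 each). Of the 28 called members, 14 kept the call in all 6 omissions. Without both arrays numbered 3, a setting chosen after seeing the data that leaves 2 arrays a fraction, 2 members were higher, 0 lower (1 at an unadjusted p below 0.05) and 1 at 10-fold, with 5 partners higher and 1 lower, and all genes gave 149 higher and 61 lower. Signs turned, without a call, with housekeeping centring for Ifit1 (-0.13), Ifit3 (-0.0093), Irf7 (-0.12), Myd88 (-0.075), Nlrp5 (-0.13) and Tlr9 (-0.032); with array weights for Myd88 (-0.019) and Nlrp5 (-6.8e-05); with quantile normalization for Nlrp5 (-0.0040); without both arrays numbered 2, also chosen after seeing the data, for Myd88 (-0.026); without Thy1-negative array 2 for Nlrp5 (-0.00073, in a range of -0.00073 to 0.0028 over all omissions of 1 array); and with the mean of all probe sets for Ifnar1 (-0.21) and Stat3 (-0.038), where Stat3 alone of these was called as reported. Except where the construction is named, the cause was not tested. Dim probe sets lie near the array's background, where signal limits what a difference can show.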
